A study of Mus musculus with 3 samples.

Results

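The clustered protocadherins are cell adhesion proteins encoded by 3 neighbouring gene families on mouse chromosome 18, called alpha, beta and gamma. Accessible chromatin over these families was described from ATAC-seq peaks of the dentate gyrus, the hippocampal subfield made up mainly of granule neurons. Members were all peaks that overlapped positions 37050000 to 38050000 of chromosome 18 (build mm9), a window of 1 Mb in which alpha starts at about 37090000 and gamma ends at about 38001500. Replicate 1 had 20 such peaks among 62912 in its list, replicate 2 had 22 among 68699, and replicate 3 had 18 among 48769. Joined wherever they overlapped by at least 1 bp, they made 26 regions of the 84529 in the whole series. Membership of a peak rests on its position alone, while the window itself was picked with earlier results of these data known.

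The samples came from microdissected dentate gyrus of adult C57BL/6 mice aged 8 weeks, with 1 library from each animal. The 3 libraries form 1 group, labelled E24, an abbreviation that the labels do not spell out. The series concerns changes of chromatin accessibility after neuronal activation, but no other group was analysed here, so these values compare positions within animals and not conditions. In ATAC-seq, open DNA is cut and tagged by the transposase Tn5, and a peak marks a stretch with many such cuts. In a bulk tissue, accessibility in fewer cells and weaker accessibility in each cell cannot be told apart.

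In the alpha and gamma families, each variable exon has its own promoter and is spliced to constant exons shared by its family, while each beta gene is made of a single coding exon. The choice among most of these promoters is known to differ from neuron to neuron, so that a neuron carries a mixture of isoforms on its surface that lets its own branches recognise and avoid each other. The last genes of the alpha and gamma rows, the C-type isoforms, are known to be used more widely. CTCF, cohesin and distal enhancers are known to take part in the choice of promoter. The RefSeq gene table used here, of the assembly GRCm38, lists 58 genes in this order: 14 of alpha, from Pcdha1 to Pcdhac2, 22 of beta, from Pcdhb1 to Pcdhb22, and 22 of gamma, from Pcdhga1 to Pcdhgc5. In the same table, Slc25a2, a mitochondrial carrier gene, and Taf7, which encodes a subunit of the general transcription factor TFIID, stand between Pcdhb22 and Pcdhga1. Zmat2 is the protein-coding gene just before Pcdha1, and Diaph1, which encodes an actin-nucleating formin, is the one after Pcdhgc5. Because this table and the peak lists are on different builds, gene order serves as background only and no peak was assigned to a gene.

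Accessible regions in the window were few and gathered in a small part of it. No animal had a peak between 36961897 and 37249321, a stretch of 287 kb that runs from before the window across the given start of alpha, nor between 37378190 and 37803564, a stretch of 425 kb in the middle of the window. All 26 regions lay in the remaining 375 kb. In bins of 100 kb counted from the start of the window, the 1st, 5th, 6th and 7th held 0 regions, the 2nd held 1, the 3rd 6, the 4th 2, the 8th 2, the 9th 5 and the 10th 10. The regions therefore formed a group of 9 in the first part of the window and a group of 17 towards its end.

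**Figure D1:**
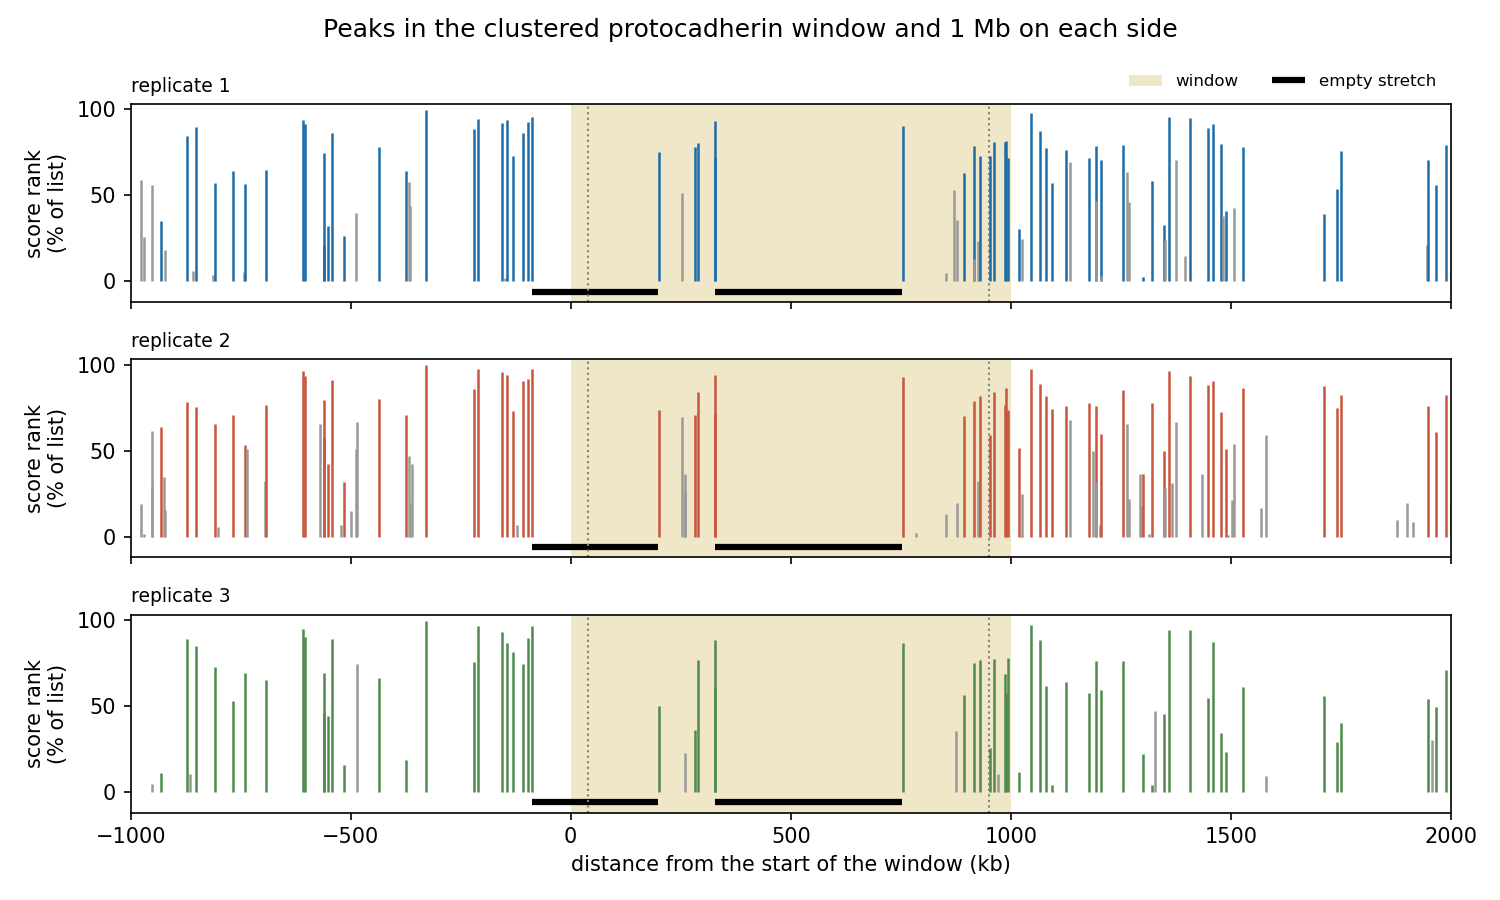
Each vertical line is a region with a peak in that animal, placed by its distance in kb from the start of the window, and its height is the score rank within the animal's list in percent. Coloured lines are regions held by all 3 animals and grey lines are regions held by fewer, dotted lines mark the given start of alpha and end of gamma, and black bars mark the stretches of 287 kb and 425 kb without a peak in any animal.

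These stretches were long for the chromosome. That of 287 kb was picked because it covers the given start of alpha, and that of 425 kb as the longest later in the window. Both choices favour long stretches, so their places in order of length describe them and are no test. Chromosome 18 had 3841 stretches between neighbouring regions, with a median length of 12.6 kb, and those of the window took places 2 and 6 in order of length. Over all autosomes, they took places 160 and 401 among 81468. The lists gave the same picture one by one: the longer stretch was 425 kb in each animal and took place 2 on chromosome 18 in each, while the other was 287 kb in replicates 1 and 2 and 288 kb in replicate 3 and took places 8, 8 and 10. Counted only between regions held by all 3 animals, chromosome 18 had 1778 stretches with a median of 29.3 kb. Among those, the stretches of the window took places 7 and 20. Stretches of at least 100 kb without a peak, a bound chosen after the values were seen, made up 62.5% of the window. They made up 19.6% of the 1 Mb before it, 25.6% of the 1 Mb after it and 17.7% of the rest of chromosome 18. Of 87 windows of 1 Mb that tile the chromosome from the window outwards, 3 had a larger part in such stretches. A stretch without a peak is not shown to be closed, since the read depth of the lists is unknown and a region below the peak threshold is not listed. How reads that map to several similar genes were treated is not stated in the labels or the lists.

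**Figure D2:**
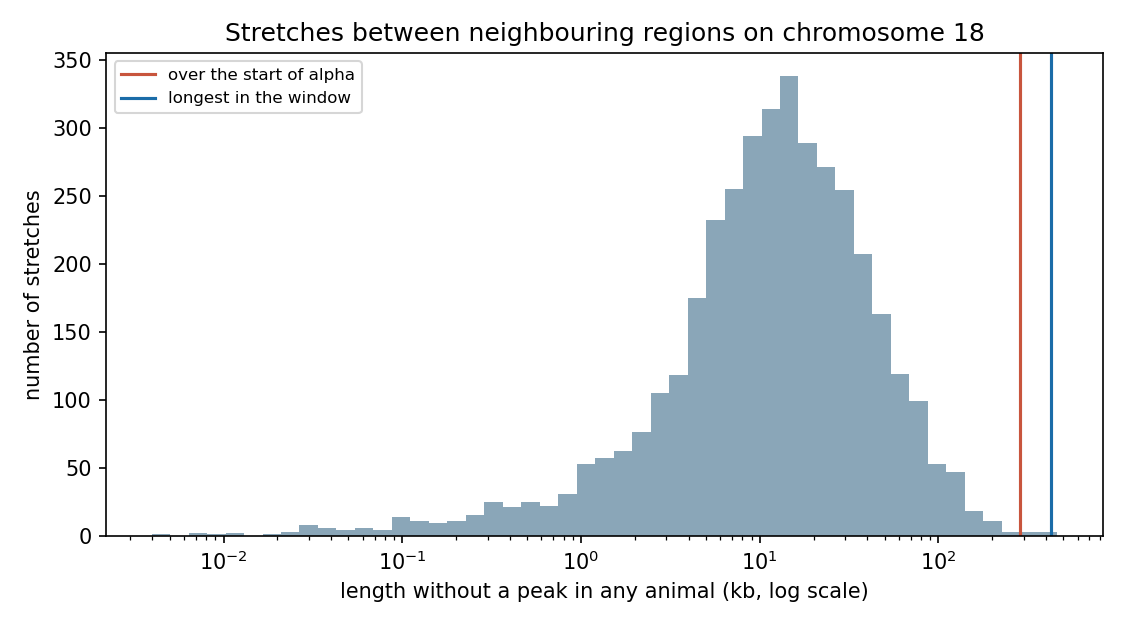
The histogram counts the stretches between neighbouring regions on chromosome 18 by their length in kb, on a log axis, with the 3 lists joined. The vertical lines mark the stretches of 287 kb and 425 kb, which lie at the far right of a distribution with a median of 12.6 kb.

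The window held fewer peaks than its surroundings in each animal. It had 20 peaks per Mb in replicate 1, 22 in replicate 2 and 18 in replicate 3. The 1 Mb before it had 37, 44 and 30 peaks per Mb, and the 1 Mb after it had 40, 50 and 33. The lowest flank value, 30 in replicate 3, lay above the highest value of the window, so the groups of values did not overlap. Divided by both flanks of the same animal, the density of the window was 0.519 in replicate 1, 0.468 in replicate 2 and 0.571 in replicate 3, a mean of 0.52 ± 0.05 (SD, n = 3). The ratio was below 1 in 3 of 3 animals, and an exact two-sided sign-flip permutation test gave p = 0.25, the smallest value that 3 animals allow. Against the rest of chromosome 18, which had 32.8, 35.8 and 27.2 peaks per Mb, the ratio was 0.63 ± 0.03 (SD, n = 3; exact permutation p = 0.25). Among the 87 windows of 1 Mb, 12 had fewer regions than this one, 1 had the same number and 73 had more, with a median of 46.

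**Figure D3:**
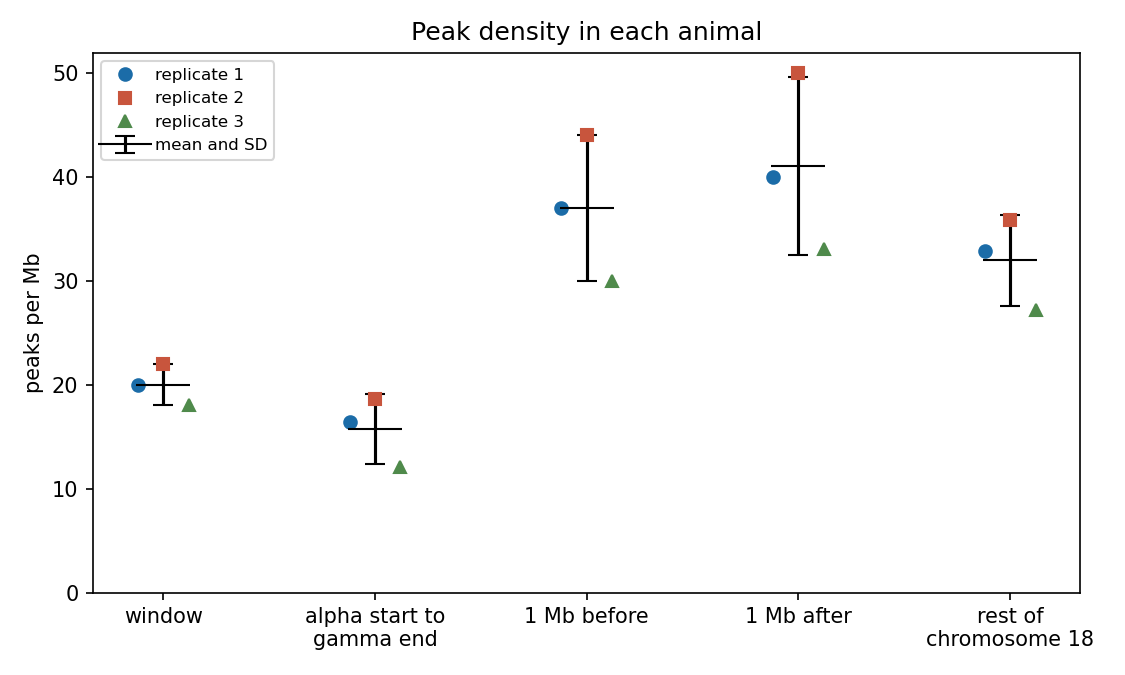
Points give the peaks per Mb of each animal in the window, from the given start of alpha to the given end of gamma, in the 1 Mb on each side and in the rest of chromosome 18, with the mean and SD over 3 animals. The window values of 18 to 22 lie below every flank value, and the narrower limits are lower still.

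The limits of the window mattered for this ratio. Its last 48.5 kb lie beyond the given end of gamma and held 6 of the 26 regions and 5 of the 14 regions shared by all animals. That end is approximate, and 1 of these shared regions starts 28 bp after it; counted with gamma, it would leave 5 regions in the tail, 4 of them shared. Between the given start of alpha and the given end of gamma there were 20 regions, 9 of them shared, at 16.5, 18.7 and 12.1 peaks per Mb in replicates 1, 2 and 3. With flanks of equal length, the density ratio over these limits was 0.39 ± 0.04 (SD, n = 3; exact permutation p = 0.25). The first 40 kb of the window, before the start of alpha, held no peak in any animal.

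Outside stretches of at least 100 kb without a peak, the window had 69.3 regions per Mb, the flanks 67.8 and the rest of chromosome 18 had 53.4. Leaving out empty stretches raises each of these values by construction, and most where such stretches are long, so they do not test how close regions stand. In peaks, the window had 53.3 ± 5.3 per Mb outside such stretches and the flanks 50.4 ± 10.03 (SD, n = 3). Between the given limits of alpha and gamma the values were lower than in the flanks, at 61.2 regions, 43.9 ± 9.3 peaks (SD, n = 3) and 27.5 shared regions per Mb, against 32.9 shared regions in the flanks. Midpoints of neighbouring shared regions lay a median of 22.8 kb apart in the window over 13 distances, against 27.3 kb in the flank before, 23.1 kb in the flank after and 30.1 kb on chromosome 18. Between the given limits of alpha and gamma this median was 30.8 kb. The median hides a wide range, from 0.734 kb to 426 kb, with 5 of the 13 distances under 10 kb and 2 over 100 kb. In the flank before, 7 of 24 were under 10 kb and 1 over 100 kb, and in the flank after 0 and 2 of 25. On chromosome 18, 314 of 1778 were under 10 kb and 219 over 100 kb.

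Sharing between animals was close to the background. Of the 26 regions, 14 (53.8%) were common to all 3 animals, 5 were held by 2 and 7 by 1, against 43.6% held by all 3 over all chromosomes, 46.3% on chromosome 18 and 48.6% in the flanks. Of the 7 regions held by 1 animal, 2 were those of replicate 1, 3 those of replicate 2 and 2 those of replicate 3. Score ranks are given as the percent of an animal's own list with an equal or lower score, since the deposited scores of different lists are not on a common scale. By mean rank over the animals that held them, the 14 shared regions ranged from 52.4% to 91.8% with a median of 75.1%. Those held by 2 ranged from 8.99% to 60.4%, and those held by 1 from 0.309% to 53.0%.

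In replicates 1 and 2, peaks of the highest-scoring 10% were about as common in the window as on the rest of chromosome 18. The median shared region ranked at 75.1%, against 74.4% in the flanks and 65.9% on chromosome 18. In replicate 1, 2 of the 20 peaks belonged to the highest-scoring 10% of the list, in replicate 2 this was 2 of 22, and in replicate 3 it was 0 of 18, against 10% of each list by definition. In both flanks together, 12 of 77, 14 of 94 and 8 of 63 peaks did. The share in the rest of chromosome 18 was 10.7%, 9.85% and 11.1% in replicates 1, 2 and 3. The highest region of the flank before lay from 36719065 to 36721193 and ranked at 99.7%, 99.8% and 99.5% in replicates 1, 2 and 3. That of the flank after, from 38094664 to 38095626, ranked at 97.7%, 97.1% and 97.1%.

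Over all peaks, the median score rank was 72.8%, 71.0% and 59.3% in the window for replicates 1, 2 and 3, and 63.8%, 61.1% and 59.4% in the flanks. The difference was positive in 2 of 3 animals, with a mean of 6.29 ± 5.57 points (SD, n = 3; exact permutation p = 0.5), and was -0.113 in replicate 3. In the highest-scoring 50% of each list, a filter on the score itself, the mean difference turned to -0.113 as well. Against the rest of chromosome 18, the window was higher by 20.1, 19.4 and 7.67 points, a mean of 15.7 ± 7.0 (SD, n = 3; exact permutation p = 0.25). In the highest-scoring 50% of each list its mean was 1.55, where filtering on the score itself narrows any difference in rank by construction. With equal list lengths, which removed the lowest scores of replicates 1 and 2, the difference from the rest of chromosome 18 was smaller. It was then 11.0, 8.30 and 7.67 points, a mean of 8.98, and the mean difference from the flanks was 1.40. The median peak was 628 bp wide in replicate 1, 597.5 bp in replicate 2 and 430 bp in replicate 3 inside the window, against 670, 671 and 430 bp in the flanks. The width ratio to the flanks was 0.94 ± 0.05 (SD, n = 3; exact permutation p = 0.5) and turned to 1.08 with flanks of 2 Mb. In the rest of chromosome 18 the median peak was 521, 525 and 368 bp wide in replicates 1, 2 and 3, narrower than in the window in each animal.

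The group of 9 regions lay between the empty stretches, from 37249322 to 37378189, a span of 129 kb. All of it lies after the given start of alpha. Its leading edge was a shared region from 37249322 to 37249916, 199.3 kb into the window, whose scores were 245 in replicate 1, 270 in replicate 2 and 96.8 in replicate 3. Its ranks were 75.0%, 73.8% and 49.8%, so replicate 3 stood apart below the other two. The next region, from 37303130 to 37304575, was wide, at 1446 bp, and was called in replicates 1 and 2 at scores of 125 and 231 and not in replicate 3. It had the highest mean rank, 60.4%, of the regions not held by all animals. Behind it came 3 narrow weak regions within 2 kb of one another: the one from 37308561 to 37308934 was held by replicates 2 and 3, and those from 37309121 to 37309454 and from 37310043 to 37310507 by replicate 2 alone, with ranks of 0.309% and 36.2%.

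Then followed 4 shared regions. The region from 37331798 to 37332366 scored 272, 241 and 76.9 in replicates 1, 2 and 3, at ranks of 78.0%, 70.7% and 36.0%, again lowest in replicate 3. The region from 37337836 to 37338586 scored 300, 417 and 186, at ranks of 80.4%, 84.3% and 76.9%, which lay within 7.41 points of each other. A pair of neighbours closed the group, separated by 32 bp in the joined lists. The smaller, from 37376755 to 37377269, scored 221, 247 and 123, and the larger, from 37377302 to 37378189, scored 586, 770 and 291. The larger was the highest-ranked region of the window, at 93.0%, 94.2% and 88.2%, and it was followed directly by the empty stretch of 425 kb. Each animal listed this pair as 2 separate peaks.

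At the far side of that stretch stood a single strong region from 37803565 to 37804239. Its scores were 480 in replicate 1, 677 in replicate 2 and 269 in replicate 3, at ranks of 90.1%, 92.6% and 86.5%, the highest-ranked but one in the window. The strongest regions of the window thus bordered the empty stretch on both sides. The next shared region lay over 100 kb further on. In between there were only weak or single calls: from 37833847 to 37834104 in replicate 2 (rank 1.94%), from 37901560 to 37901900 in replicates 1 and 2 (4.84% and 13.1%), from 37920877 to 37921548 in replicate 1 (53.0%), from 37925426 to 37925684 in replicate 3 (35.5%) and from 37927746 to 37928179 in replicates 1 and 2 (35.7% and 19.6%).

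Towards the end of gamma the shared regions became closer. The region from 37942890 to 37943483 scored 168, 236 and 110 in replicates 1, 2 and 3, at ranks of 63.0%, 70.1% and 56.3%. The region from 37965602 to 37966510 scored 282, 324 and 174, at 78.8%, 78.6% and 74.7%, the closest agreement in rank among the 14 shared regions. A weak peak of replicate 1 alone followed it at a distance of 109 bp, from 37966620 to 37967111 (rank 12.9%). The region from 37974497 to 37975270 was held by replicates 1 and 2, at ranks of 23.8% and 32.5%. The widest region of the window, 1607 bp from 37978666 to 37980272, scored 228, 373 and 187, at ranks of 72.8%, 81.8% and 76.9%. Its peak was 1607 bp wide in replicate 2, 1121 bp in replicate 1 and 562 bp in replicate 3.

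The last 6 regions started after the given, approximate end of gamma. The nearest to it, 28 bp beyond, from 38001528 to 38002956, had a score of 227 for replicate 1 and of 168 for replicate 2, while replicate 3 had 2 smaller peaks there, the higher scoring 66.4. Its ranks of 72.8%, 58.9% and 25.6% were the most unequal among the shared regions. The region from 38011549 to 38012266 scored 305, 418 and 188, at ranks of 80.8%, 84.3% and 77.2%. Replicate 3 alone had a peak from 38021339 to 38021550, at a rank of 10.6%. The other three were crowded into 7 kb: from 38036708 to 38037391 at ranks of 80.8%, 76.4% and 68.3%, from 38039385 to 38040337 at 81.3%, 86.3% and 57.4%, and from 38043051 to 38043633 at 71.6%, 73.6% and 77.6%. The last of these was the only shared region of the window that ranked highest in replicate 3.

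**Figure D4:**
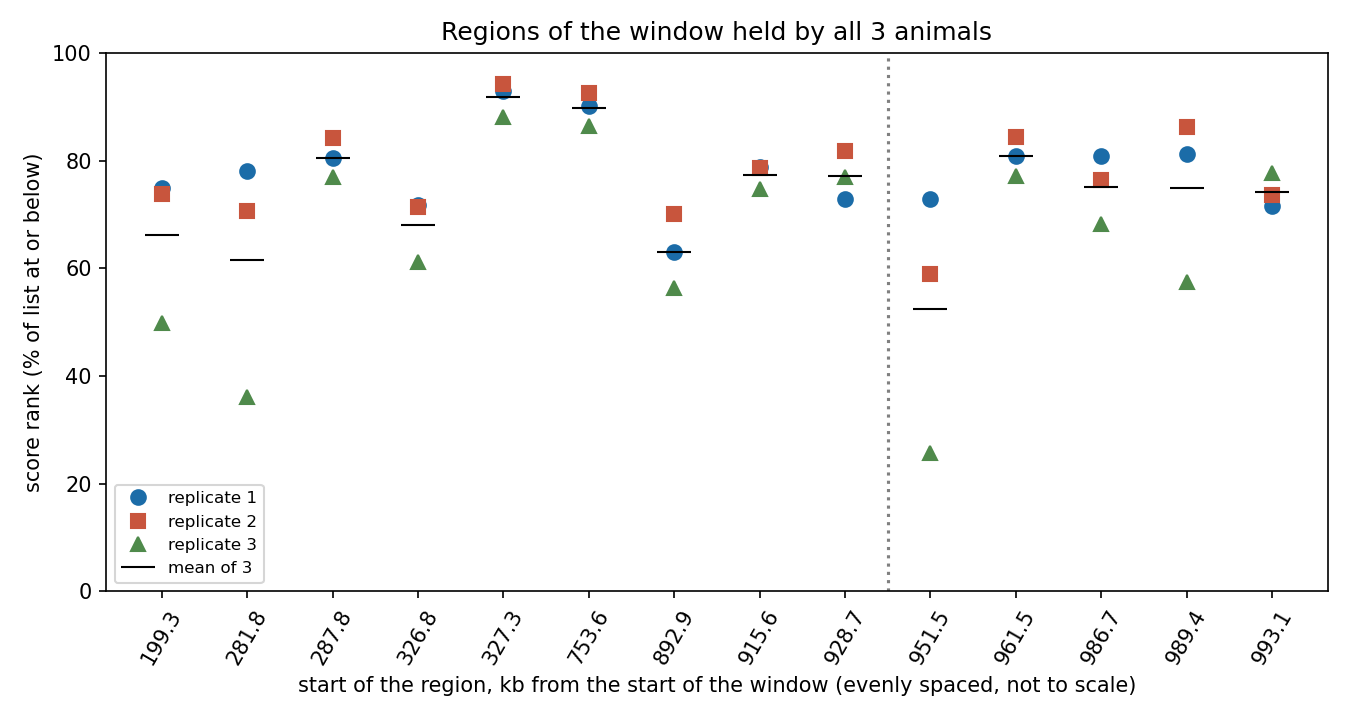
Score ranks in percent of each animal's list for the 14 regions of the window held by all 3 animals, in order along the chromosome and labelled by their start in kb from the window start, with the mean as a bar. The dotted line marks the given end of gamma. The regions at 327.3 and 753.6 kb, on both sides of the empty stretch of 425 kb, rank highest, and replicate 3 is lowest in 12 of 14.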

How the data were processed

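Reads were aligned with Bowtie2 to mm9, per the submitters' processing notes, and peak names in the deposited lists are those of the caller MACS. Each list belongs to 1 animal. Not given in the sources used here were versions, peak settings, the treatment of duplicate or multiply mapped reads and any shift for Tn5. The deposited score of a peak has no stated unit, starts at 50 in every list and depends on depth, so it was used as a rank within its list. Read depth is unknown, and the number of animals limits the precision.

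Positions count from 1. Peaks overlapping by at least 1 bp were joined over the whole series, and the highest peak of each animal stood for it in a region. Flanks were 1 Mb on each side. Density on chromosome 18 used the length between its outer peaks. Ratios and differences were taken within each animal and tested by an exact sign-flip permutation test. All regions of the window are named. The window, lists and tests were chosen with earlier results of these data known, and the gap bound of 100 kb and the grouping of regions after the values were seen. The joining, gap and test steps were tested on simulated data. Alternatives were the highest-scoring 50% of each list, equal list lengths, the narrower limits, reciprocal overlap of 50%, flanks of 0.5 or 2 Mb or on 1 side, 1 Mb windows with a peak, and leaving out each replicate. Computation used Python 3.11.15 with scipy 1.17.1, pandas 2.3.3 and numpy 2.4.6, and plots used matplotlib 3.10.9.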

Additional observations from a re-analysis of the deposited data

How the results depend on the processing

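Of 90 alternative values for 12 results, 69 stayed within the spread over animals or, for counts, shares and lengths, within a factor of 1.5 or the exact binomial interval, 19 moved and 2 turned direction. Not all could move freely. Leaving out a replicate reuses the values of the other animals, and dropping windows without a peak cannot change a rank difference. In the highest-scoring 50% of each list, 16 regions were left, the density of the window was 14 peaks per Mb, and its ratio was 0.593 to the flanks and 0.835 to the rest of chromosome 18, the rank difference was -0.113 from the flanks and 1.55 from the chromosome, and the width ratio was 0.873. With equal list lengths, the density was 17.7 and its ratio to the chromosome 0.671. The mean rank difference in that run was 1.40 from the flanks and 8.98 from the chromosome. Over the narrower limits, 9 regions were shared, the density was 15.7, its ratios were 0.391 and 0.488, and the width ratio was 0.887. With flanks of 0.5 Mb the density ratio was 0.451, the rank difference 0.259 and the width ratio 0.882, and with flanks of 2 Mb the rank difference was 11.99 and the width ratio 1.08. Against the flank before alone the mean rank difference was 0.368, from 8.72, 6.55 and -14.2 in replicates 1, 2 and 3. Against the flank after alone it was 11.1, positive in each animal. With flanks of 0.5 Mb it was 2.30, 4.33 and -5.85 in replicates 1, 2 and 3. Keeping the highest scores narrows rank differences by construction; other causes were not tested. Both density ratios stayed below 1 in every alternative run that gave them. Both empty stretches kept lengths of 287 kb and 425 kb with the highest-scoring 50%, equal list lengths, the narrower limits and each replicate left out. These runs only removed peaks or moved the limits, so a stretch could not become shorter in them. With 1 replicate left out, regions held by both remaining animals made up 60.9% to 75.0% of the window's regions, the highest without replicate 3. A region held by all 3 animals stays shared with 1 left out, unless its other peaks touched only through that animal. This share therefore tends to lie above the 53.8% for 3 animals, and no background share for 2 animals is given. Density ratios to the flanks were 0.494 to 0.545 in these runs. Under reciprocal overlap, 13 of the 14 shared regions stayed so. Depth is unknown, so a missing peak is not shown to be a closed region. No paired analysis was possible because replicate numbers have no other group to pair with; window and surroundings were compared within each animal.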

Other observations

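Replicate 3, which had the shortest list, ranked lowest in 12 of the 14 shared regions of the window (85.7%), against 64.7% of 51 shared regions in the flanks, 55.3% of 1779 on chromosome 18 and 58.7% of 36824 over all chromosomes. The 14 regions lie close together and are not independent, so no test was made. Across them, Spearman's correlation of scores was 0.86 for replicates 1 and 2 and 0.74 for replicates 2 and 3. It was 0.46 for the pair of replicates 1 and 3. Across the 51 shared regions of the flanks, the same pairs stood at 0.90, 0.80 and 0.86. They describe sites of the same libraries, and no p-value is given. The regions with the widest spread of rank were the one at the end of gamma, from 38001528 to 38002956, with 47.1 points, and that from 37331798 to 37332366, with 42.0 points, both lowest in replicate 3. The median spread of the 14 was 9.83 points, against 13.3 in the flanks and 14.7 on chromosome 18.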
